A study of Mus musculus with 4 samples.

Results

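The genes described here are 9 B cell genes, Cd79a, Cd79b, Ms4a1, Cd22, Blk, Pax5, Ebf1, Fcmr and Fcer2a, chosen by name as genes of the B cell receptor and of B cell identity. All 9 were listed with values in each library, among 17823 genes with values. Whole blood of C57BL/6 mice was sequenced after 30 days of treatment with naringenin (Nar), a flavonoid, or with phosphate-buffered saline in controls (Ctrl). The mice were 12 months old (adult in the sample labels), and Nar was injected into the tail vein at 20 mg/kg. There were 2 libraries in each group, numbered 1 and 3, made from poly(A) RNA. That each library came from a separate mouse is not stated in the sources used here, so the p-values measure the spread between these libraries. The values are FPKM, fragment numbers scaled by transcript length and sequencing depth, so that levels can be compared between genes. How many reads lie behind each value is unknown. Where values are listed by group, library 1 comes first and library 3 second.

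B cells recognise antigen through surface immunoglobulin, which cannot signal by itself. It is held together with a dimer of Cd79a and Cd79b, whose tails carry the tyrosines that Lyn, Blk and Syk act on when antigen binds. Cd22 is a sialic acid-binding coreceptor that dampens this signal. Ebf1 and Pax5 are the transcription factors that set up and hold the B cell programme, and Cd79a is a textbook target of both. Ms4a1 encodes CD20, Fcmr the receptor for the Fc part of IgM, and Fcer2a the low-affinity IgE receptor CD23 of mature B cells. In whole blood these transcripts come mainly from circulating B cells, and fewer B cells cannot be told apart from less RNA per B cell.

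In RefSeq on GRCm38.p6, the build family that the submitters' processing notes name, the genes lie on 7 chromosomes. Cd79a (NCBI Gene 12518) lies at chr7:24897497-24901858 and Cd22 (12483) at chr7:30865404-30880342. Cd79b (15985) lies at chr11:106311341-106314562 and Ebf1 (13591) at chr11:44618100-45008096. The others are Ms4a1 (12482) at chr19:11249679-11266149, Blk (12143) at chr14:63372837-63417187, Pax5 (18507) at chr4:44524748-44710694, Fcmr (69169) at chr1:130865777-130880790 and Fcer2a (14128) at chr8:3680280-3694174. Promoter sequences from RefSeq were found for 6 of the 9. Cd79b, Ms4a1 and Blk had no entry.

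The windows of 250 bases before a start site of Cd79a and of Cd22 are shown because these genes hold the signalling chain and the brake of the receptor. The Cd79a window is chr7:24897247-24897496 on the plus strand. The Cd22 window is chr7:30879029-30879278 on the minus strand, before a start that lies inside the gene's outer bounds. Capitals mark matches to an EBF half-site pair (CCCNNGGG) or to an E-box (CAGGTG, or CACCTG on the other strand), which did not overlap.
Cd79a: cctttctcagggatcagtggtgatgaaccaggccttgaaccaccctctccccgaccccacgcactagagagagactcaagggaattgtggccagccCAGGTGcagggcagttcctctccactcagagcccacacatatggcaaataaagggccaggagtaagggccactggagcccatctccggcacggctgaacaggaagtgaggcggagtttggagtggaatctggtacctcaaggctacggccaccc
Cd22: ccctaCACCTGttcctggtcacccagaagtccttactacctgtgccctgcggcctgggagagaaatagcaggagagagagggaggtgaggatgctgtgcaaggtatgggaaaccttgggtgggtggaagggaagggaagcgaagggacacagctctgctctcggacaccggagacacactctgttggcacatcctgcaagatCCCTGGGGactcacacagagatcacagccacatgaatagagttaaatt
The Cd79a E-box begins 154 bases before the start. In Cd22 the EBF letters begin 48 bases and the E-box letters 245 bases before it. For the counts, windows also took the 50 bases after the start and were read on both strands. They cover 9 promoters of 6 of the genes, because some genes have more than 1. The EBF letters were in 1 of these 9 member promoters and in 13.7% of all 32851. The E-box letters were in 4 of the 9 member promoters, those of Cd22, Cd79a and Fcmr and one of Fcer2a, and in 20.2% of all. The octamer ATTTGCAT was in 0 of the 9 member promoters and in 1.74% of all. These matches are a description of the letters and no evidence of binding.

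The B cell transcripts were present at low levels in all 4 libraries. The B cell markers Cd79a, Cd79b, Ms4a1 and Pax5 were above 0 in every library, and Ighm was not analysed here. Haemoglobin genes took 92.6% to 96.4% of the summed FPKM, which leaves the rest of the blood transcriptome a small remainder. The median FPKM of all 5339 genes tested (averaging 0.5 FPKM or more) was 1.85 and 1.97 in Ctrl and 0.89 and 0.74 with Nar. Ctrl 3 stood apart by its platelet genes: 10 platelet markers summed to 2653 FPKM there, against 533 to 821 in the other libraries.

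Averaged over the 4 libraries, Cd79a had the highest level of the 9 genes at 12.2 FPKM, followed by Cd79b at 7.79, Fcmr at 4.31 and Ms4a1 at 3.02. Below them came Cd22 at 2.49, Blk at 1.39, Pax5 at 1.29, Fcer2a at 0.833 and Ebf1 at 0.528. Only the first steps of this order were clear of the spread between libraries: of 8 pairs of neighbours, 2 had ranges that did not overlap, Cd79a with Cd79b and Cd79b with Fcmr.

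**Figure D1:**
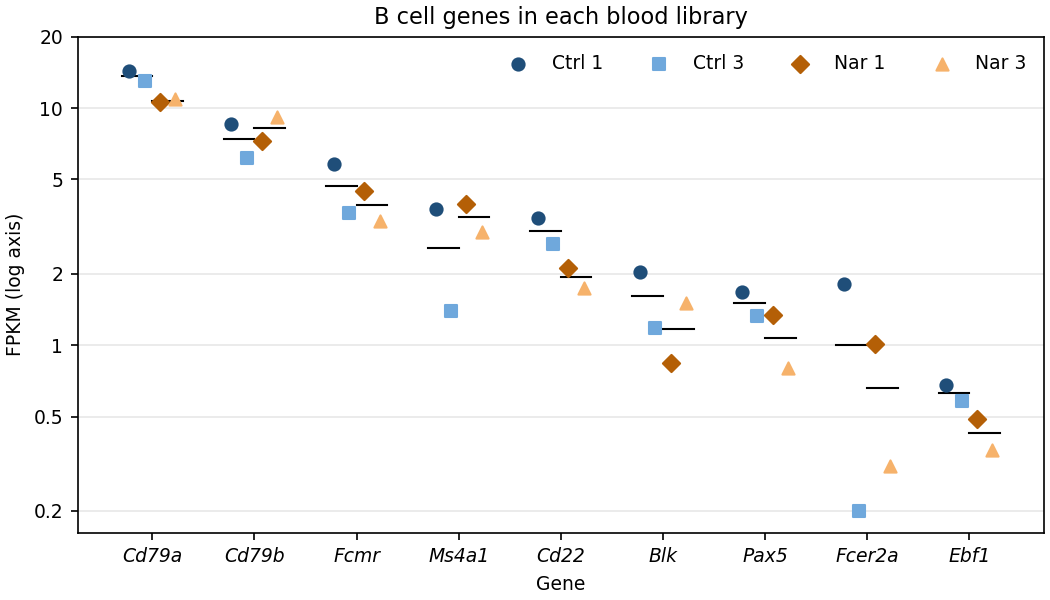
FPKM (log axis) of each B cell gene in Ctrl 1, Ctrl 3, Nar 1 and Nar 3 (points), with the mean of each group as a short bar. Both Nar points lie below both Ctrl points for Cd79a, Cd22 and Ebf1, while Fcer2a runs from 0.2 to 1.81 within Ctrl alone.

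None of the 9 genes passed the test between Nar and Ctrl, although 39.6% of all tested genes were called lower and 0.187% higher at a limma adjusted p under 0.05. On log2(FPKM + 0.1), 7 of the 9 fold changes were below 0 and 2 above, with a median of -0.34 beside -1.07 over all tested genes. All 9 lay above that median of all genes. For single members, between 80.1% (Cd22) and 98.6% (Ms4a1) of tested genes had a lower fold change. Cd22 was below the median of all genes when no low genes were filtered out (-0.63 against -0.57), and Fcer2a was below it without Ctrl 3 (-1.50 against -0.95). None of the 9 had an unadjusted p under 0.05, with the mean-dependent trend of limma or without it, and every 95% interval held 0. Of all 5339 tested genes, 3036 had such a p with the trend and 3006 without it. The median of the members moved with single libraries, to -0.06 without Ctrl 1, -0.15 without Nar 3, -0.44 without Nar 1 and -0.58 without Ctrl 3.

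**Figure D2:**
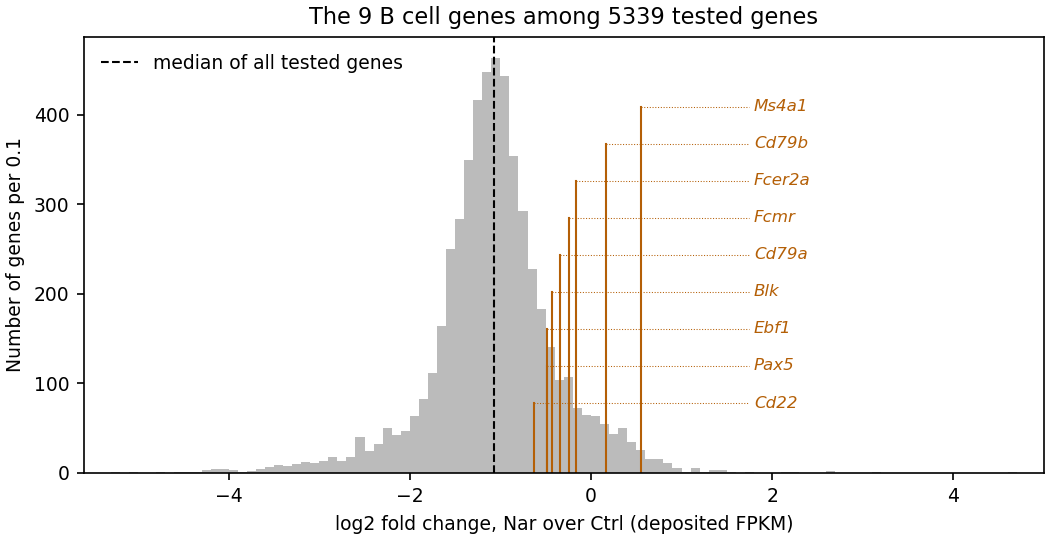
Number of tested genes at each log2 fold change of Nar over Ctrl (grey), with the 9 B cell genes as orange lines whose height only separates their names. All 9 sit right of the dashed median of all 5339 tested genes at -1.07, from Cd22 at -0.63 to Ms4a1 at 0.55.

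The values of the receptor's signalling chains lay in different directions, and neither gene passed the test. The Ctrl libraries held 14.31 and 13.01 FPKM of Cd79a and the Nar libraries 10.62 and 10.88. The Nar libraries lay below those of Ctrl, by more than the gap within either group. The group means were 13.7 ± 0.919 and 10.8 ± 0.184 (SD, n = 2), a log2 fold change of -0.34 (SE 0.474, limma adjusted p = 0.536), and it ran from -0.41 to -0.27 with a library left out. Cd79b was at 8.6 and 6.15 FPKM in Ctrl and at 7.26 and 9.16 with Nar. Its groups overlapped, and its log2 fold change was 0.16 (SE 0.474, 95% interval -0.91 to 1.23, limma adjusted p = 0.768). It was -0.08 without Ctrl 3 and -0.0027 without Nar 3, and 0.40 without Ctrl 1 and 0.33 without Nar 1.

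The ratio of 2 genes within a library is untouched by library scaling. Cd79b over Cd79a stood at 0.601 and 0.473 with Ctrl and at 0.684 and 0.842 with Nar, so that the groups did not overlap. An exact two-sided permutation test gave p = 0.33, which is the lowest that groups of 2 can reach. Against Cd79a, 3.07% of all other tested genes were higher and 63.2% lower in both Nar libraries.

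Blk, a Src family kinase of B cells that acts on the receptor's tails, had 2.04 and 1.18 FPKM with Ctrl and 0.84 and 1.51 with Nar. The groups overlapped, and the log2 fold change was -0.43 (SE 0.423, limma adjusted p = 0.387). It hung on single libraries, at -0.057 without Ctrl 1, -0.040 without Nar 1, -0.80 without Ctrl 3 and -0.82 without Nar 3. Cd22 was at 3.43 and 2.66 FPKM in Ctrl and at 2.12 and 1.74 with Nar. Its groups did not overlap, and Nar stood at 63.4% of the Ctrl mean. Cd22 had the lowest fold change of the 9 genes, -0.63 (SE 0.394, 95% interval -1.52 to 0.26, limma adjusted p = 0.192), and it ran from -0.80 to -0.45 with a library left out.

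Ms4a1, the gene of CD20, had 3.76 and 1.4 FPKM with Ctrl and 3.94 and 2.99 with Nar. Ctrl 3 was far below the other libraries, and the groups overlapped. The log2 fold change was 0.55 (SE 0.514, 95% interval -0.61 to 1.72, limma adjusted p = 0.358), the highest of the 9. It was -0.13 without Ctrl 3 and 0.36 without Nar 1. Without Ctrl 1 it was 1.24, with both Nar libraries higher than Ctrl 3, which was then the only Ctrl library. Ctrl 3 is also the library in which the platelet markers were high, and their part in this value was not tested.

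Fcmr was at 5.81 and 3.6 FPKM in Ctrl and at 4.47 and 3.34 with Nar, with overlapping groups and a log2 fold change of -0.24 (limma adjusted p = 0.656) that was 0.10 without Ctrl 1, -0.033 without Nar 3, -0.44 without Nar 1 and -0.58 without Ctrl 3. Fcer2a varied more within groups than between them. It was at 1.81 FPKM in Ctrl 1 and 0.2 in Ctrl 3, a 9.05-fold gap, and at 1.01 in Nar 1 and 0.31 in Nar 3. In both groups the library numbered 1 was the higher. The log2 fold change of -0.17 (SE 0.801, 95% interval -1.98 to 1.64, limma adjusted p = 0.86) therefore says little. It was 1.17 without Ctrl 1 and 0.55 without Nar 3, and -1.50 without Ctrl 3 and -0.88 without Nar 1.

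Of the transcription factors, Pax5 was at 1.68 and 1.33 FPKM in Ctrl and at 1.34 and 0.8 with Nar, a log2 fold change of -0.49 (SE 0.38, limma adjusted p = 0.28). Nar 1 lay just above Ctrl 3, so the groups overlapped. Leaving out a library moved the value to between -0.83 (without Nar 1) and -0.15 (without Nar 3). Ebf1 was at 0.68 and 0.58 FPKM in Ctrl and at 0.49 and 0.36 with Nar, a log2 fold change of -0.48 (SE 0.4, limma adjusted p = 0.307). Its groups did not overlap, but it was close to the level of 0.5 under which genes were not tested. Its value ran from -0.66 without Nar 1 to -0.30 without Nar 3.

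Counted over the list, 3 of the 9 genes (Cd79a, Cd22 and Ebf1) were lower in both Nar libraries and 0 were higher in both, against 78.3% and 1.27% of all tested genes. The count was 7 without Ctrl 3 and 5 without Nar 1, where the shares of all tested genes were 82.2% and 89.7%. Ctrl 1 exceeded Ctrl 3 for all 9 B cell genes, with a median log2 difference of 0.48, while over all tested genes the median of that difference was -0.13 and 42.9% were higher in Ctrl 1. Between the Nar libraries, 6 of the 9 were higher in Nar 1, where the figure for all genes was 69.1%. For 5 of the 9 genes, Cd79b, Blk, Ms4a1, Fcmr and Fcer2a, the gap between the Ctrl libraries was larger than the difference between the groups. It was widest for Ms4a1 and Fcer2a, at 1.36 and 2.67 on the log2 scale.

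The direction of 7 of the 9 fold changes depended on how the libraries were scaled, and those of Cd79b and Ms4a1 were above 0 under every scaling tried. Median-of-ratios scaling makes the typical gene level between libraries and moved the median of all tested genes from -1.07 to -0.0016. Under it all 9 B cell genes had a fold change above 0, with a median of 0.77. For 7 of the 9, all but Blk and Fcer2a, both Nar libraries were then above both Ctrl libraries, against 21.1% of all tested genes. No member passed at a limma adjusted p under 0.05, while 0.599% of all genes were called lower and 0.187% higher. At an unadjusted p under 0.05 there were 2 of the 9 members, near the 14.9% of all tested genes. They were Ms4a1 with a log2 fold change of 1.68 (SE 0.502, limma adjusted p = 0.135) and Cd79b with 1.32 (SE 0.45, limma adjusted p = 0.179). On the deposited scale, these are the 2 members whose 95% interval lay wholly above the median of all genes. How many of all tested genes had such an interval was not counted. The scaling moves that median to -0.0016, so the 2 comparisons are much alike and come from the same libraries. When the haemoglobin genes were taken out and the remainder rescaled, the median of the 9 was 0.22 and 2 of them, Cd22 and Ebf1, were below 0.

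**Figure D3:**
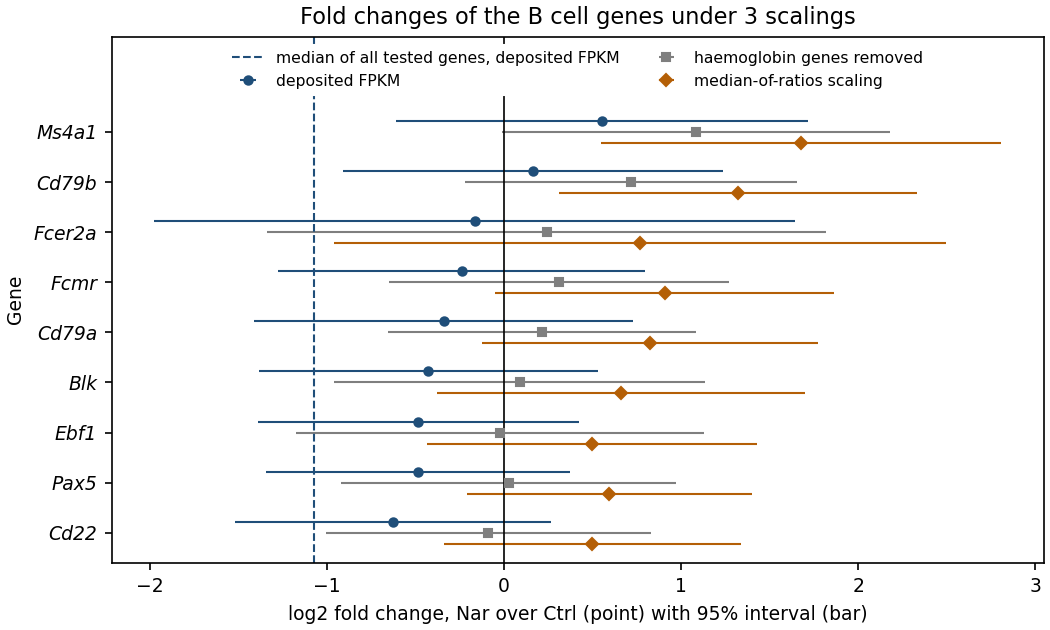
log2 fold change of Nar over Ctrl for each B cell gene (points) with the 95% interval of limma (bars), on deposited FPKM, with haemoglobin genes removed, and after median-of-ratios scaling. On deposited FPKM every bar crosses 0, and after median-of-ratios scaling the bars of Ms4a1 and Cd79b lie above 0.

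The 9 genes summed to 42.1 and 30.1 FPKM with Ctrl and to 32.1 and 31.1 FPKM with Nar. As a part of the FPKM outside haemoglobin, the sum was 5.63 and 2.75 per 10000 with Ctrl and 4.87 and 5.46 with Nar. Ctrl 3 alone was low. The means were 4.19 ± 2.04 in Ctrl and 5.16 ± 0.421 with Nar (SD, n = 2), a ratio of 1.23, with overlapping groups and an exact permutation two-sided p = 1. The ratio was 0.917 without Ctrl 3 and 1.88 without Ctrl 1. The part of the platelet genes of Ctrl 3 in this low value was not tested.

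Across all 36 pairs of the 9 genes, the within-library ratio did not overlap between groups in 14, or 38.9%. Over all pairs of tested genes above 0 in every library the share was 45.2%, so the 9 genes were not set apart by this count. Of the 14 pairs, 11 involved Ms4a1 or Cd79b, each of which was higher with Nar against most of its partners. Ms4a1 over Cd79a was 0.263 in Ctrl 1 and 0.108 in Ctrl 3 against 0.371 in Nar 1 and 0.275 in Nar 3. The gap between Ctrl 1 and Nar 3 is small beside that between the Ctrl libraries. Fcer2a took part in 0 of the 14. The pairs share genes and libraries and are given as a description.

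**Figure D4:**
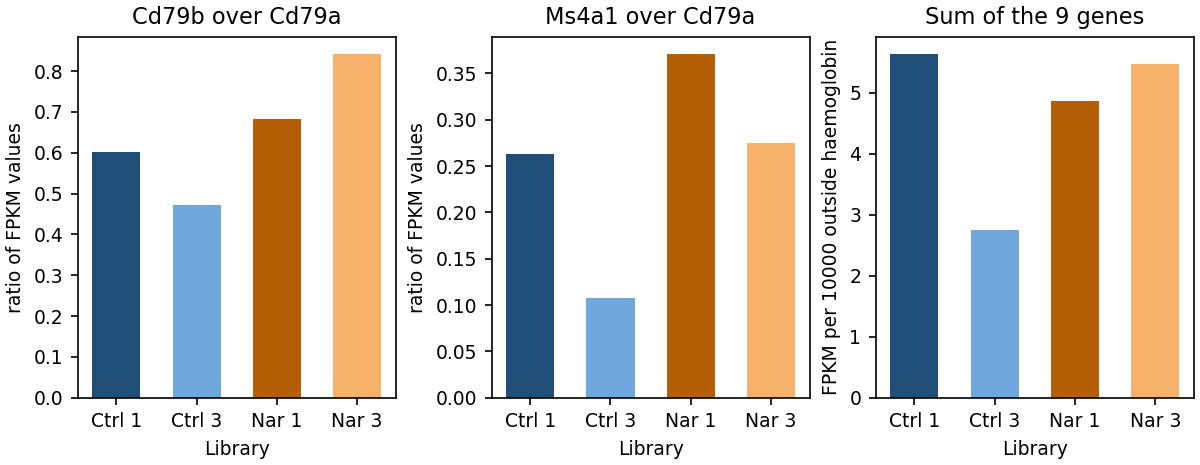
FPKM ratio of Cd79b to Cd79a (left), ratio of Ms4a1 to Cd79a (middle) and sum of the 9 B cell genes per 10000 FPKM outside haemoglobin (right), 1 bar for each library. The left and middle bars are higher in both Nar libraries, and on the right only Ctrl 3, at 2.75, stands below 4.87.

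The rest of the receptor pathway was read from lists of genes. Of 20 receptor signalling genes 18 were tested, and 5 were called lower and 0 higher, with a median log2 fold change of -1.10. Over all tested genes 39.6% were called lower and the median was -1.07, so the list was close to the typical gene. The lowest were Pik3cd, the lipid kinase subunit of leukocytes, at -1.65, and Vav1, an exchange factor, at -1.44 (limma adjusted p = 0.0251 and 0.0209). The kinases Syk (-1.19), Lyn (-1.36) and Btk (-0.63) did not pass, with limma adjusted p-values of 0.061, 0.0692 and 0.158. The highest was the adaptor Blnk at -0.23 (limma adjusted p = 0.598). After median-of-ratios scaling the list's median was 0.0019 and 0 genes were called.

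Of 12 genes that restrain the receptor 11 were tested, and 5 were called lower and 0 higher, a share near the 39.6% of all tested genes, with a median of -1.38. The lowest were Lilrb4a at -3.90 and Pirb at -2.53 (limma adjusted p = 0.00427 and 0.0146), inhibitory receptors that myeloid cells also carry. The highest were Cd72 at -0.71 and Siglecg at -0.74, inhibitory receptors of B cells that did not pass (limma adjusted p = 0.176 and 0.154). Lilrb4a alone of this list was called after median-of-ratios scaling (limma adjusted p = 0.0451). Beside these values, all 12 neutrophil markers were called lower, with a median of -3.67 and a sum of 1746 and 1442 FPKM in Ctrl against 106 and 165 with Nar; their part in the falls was not tested.

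Of 19 B cell transcription factors 14 were tested, and 6 were called lower and 0 higher, a share near the 39.6% of all tested genes, with a median of -0.93. Spi1, which encodes PU.1 and is also a master factor of myeloid cells, fell by 2.79 on the log2 scale (limma adjusted p = 0.00609). Xbp1, which drives secretion in plasma cells and other cells, fell by 1.84 (limma adjusted p = 0.0157). Neither passed after median-of-ratios scaling. Spib at 0.37 and Bcl11a at 0.28 were highest and did not pass (limma adjusted p = 0.473 and 0.618).

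Of 22 other genes of the B cell surface and of B cell survival 19 were tested, and 1 was called lower and 0 higher, with a median of -0.54. Over all tested genes 39.6% were called lower and 0.187% higher, with a median of -1.07. The called gene was Cd52, a small surface glycoprotein of leukocytes, at -2.23 (limma adjusted p = 0.0177, and 0.271 after median-of-ratios scaling, where 0 genes of this list were called), and the next lowest was the tetraspanin Cd37 at -1.04. Cxcr5, the chemokine receptor that guides B cells into follicles, was at 0.91 and 0.5 FPKM in Ctrl and at 1.3 and 1.55 with Nar. Its groups did not overlap, and its log2 fold change of 0.97 did not pass (limma adjusted p = 0.0671, and 0.0614 after median-of-ratios scaling). Fcrla followed at 0.44. Of 17 immunoglobulin and surrogate light chain genes 3 had values, and the only 1 tested, Vpreb3, was at 0.24 (limma adjusted p = 0.687); Ighm, Ighd and Igkc were not analysed here.

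Of the other blood cells, the T cell list had a median of -0.61 over 10 tested genes, 0 of them called. Beside the 39.6% of all tested genes called lower, the NK cell list had -1.24 with 3 of 9 called lower, the monocyte list -1.84 with 5 of 8 called lower, and the platelet list -1.07 with 0 of 10 called. Erythroid markers outside haemoglobin had 0.34 with 0 of 11 called. Haemoglobin genes had -0.07 with 2 of 10 called higher, where the share over the whole tested set was 0.187%. After median-of-ratios scaling, the calls were 6 lower among neutrophil, 2 lower among monocyte and 4 higher among haemoglobin genes. The T, NK, platelet and erythroid lists then had 0 calls. Of the 5339 genes tested, that scaling left 0.599% called lower and 0.187% called higher. With either Ctrl library left out, 0 of all 5339 tested genes passed in limma, those of the lists included, and 2682 (without Ctrl 1) and 2133 (without Ctrl 3) had an unadjusted p under 0.05.

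**Figure D5:**
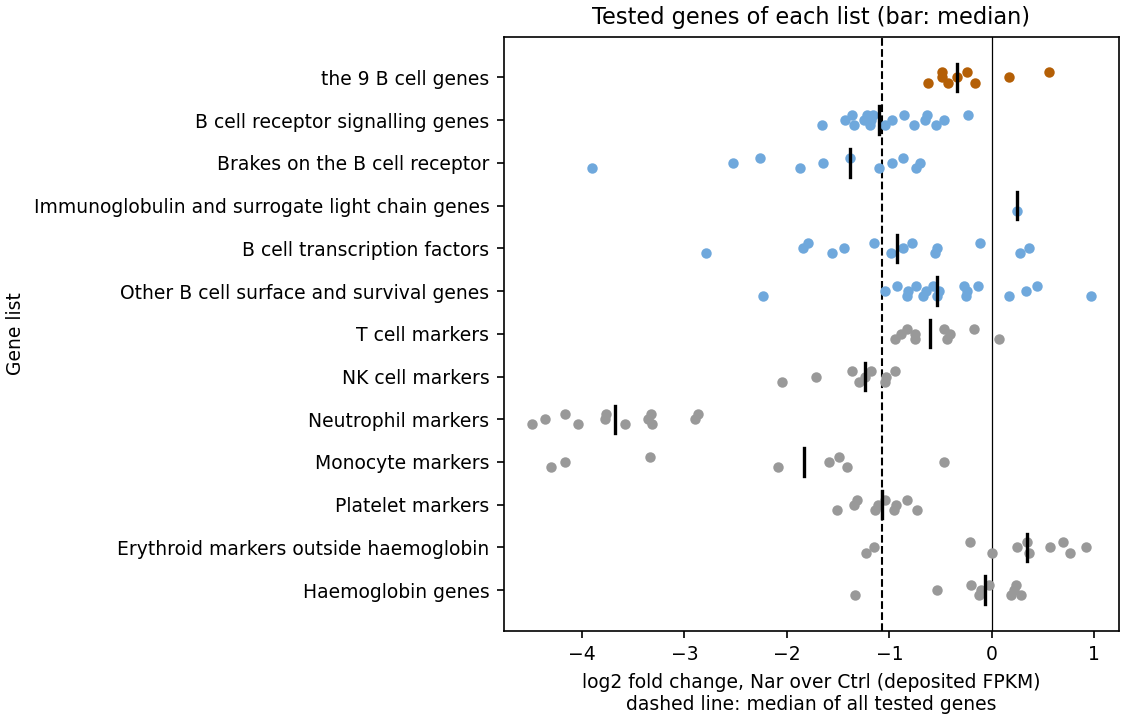
log2 fold change of Nar over Ctrl on deposited FPKM for each tested gene (points) of each list, with the list's median as a bar. The 9 B cell genes lie right of the dashed median of all tested genes at -1.07, while the neutrophil markers lie between -4.49 and -2.87.

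The genes whose pattern over the 4 libraries was most like the average of the 9 were Ms4a4b, an unnamed gene listed as BGIG10090_47281, Anp32b, Pou2af1 and Hsp90ab1. They were nearest by Euclidean distance of log2 deviations among 2057 genes averaging 2 FPKM or more, at distances of 0.164 to 0.24. Ms4a4b was at 4.12 and 2.54 FPKM in Ctrl and at 2.84 and 2.19 with Nar. Pou2af1, a B cell transcriptional coactivator, was at 3.22 and 2.21 FPKM in Ctrl and at 2.57 and 2.35 with Nar. Among the 9 themselves Fcmr was closest to their average (0.122) and Fcer2a farthest (1.58). With 4 libraries such likeness is a description only.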

How the data were processed

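Blood RNA-seq libraries, 2 Ctrl and 2 Nar, were grouped by their sample labels. The deposited table holds FPKM, which the authors rounded to 2 decimals. The paper names bowtie-2 alignment to gene sequences, while the submitters' processing notes name TopHat2, Cufflinks and GRCm38. Read numbers were not recovered from the rounded values, so depth is unknown and no counting error is given.

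All 23136 listed genes were read; 5313 were blank throughout. Differences were computed on log2(FPKM + 0.1), which understates changes of low genes, over the 5339 genes averaging 0.5 FPKM or more, using limma 3.58.1 in R 4.3.3 (lmFit, eBayes with trend) with Benjamini-Hochberg adjustment over all of them, tested on simulated data. DEGseq, which the authors used, needs read numbers. Single values used exact permutation tests (SciPy 1.17.1).

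The members and lists were chosen with earlier results of these data known. Named genes were the 9 members, Syk, Lyn, Btk, Blnk, Ighm, Ighd and Igkc, the 2 highest and 2 lowest of each B cell list, and the 5 genes most like the members; some genes that this rule names are not reported here. Alternatives were other pseudocounts, filters and scalings, limma without trend, a replicate block and each library left out. Plots were drawn with matplotlib 3.10.9.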

Additional observations from a re-analysis of the deposited data

How the results depend on the processing

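Precision was limited by 2 libraries in each group, and depth was unknown. No member was called lower or higher under any alternative: pseudocounts of 1 and 0.01, no filter, an average of 5 FPKM or more (2 members tested), TPM, haemoglobin removed, median-of-ratios scaling, no trend, the replicate block, or any library left out. Leaving aside the fit without trend, 18 of 101 member fold changes reversed, 5 with haemoglobin removed and 7 after median-of-ratios scaling; the block and the filters cannot move a fold change.

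The groups share the replicate numbers 1 and 3. Deviations of same-numbered libraries had a correlation of -0.153 across genes. With 2 libraries in each group the crossed value is its mirror, 0.153. This single correlation therefore cannot decide whether the numbers pair the libraries. With the replicate block 0 members passed and calls over all genes went from 2113 lower to 1802; with the pairing crossed, chosen after seeing the data, 0 members passed and 3211 genes were called lower. Calls over all genes were 32 lower after median-of-ratios scaling, 267 with haemoglobin removed, 116 of 1083 at an average of 5 FPKM or more, and 0 of 16382 without a filter (4978 at an unadjusted p under 0.05 in limma). They ran from 0 to 254 with a library left out, 0 without either Ctrl library.

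Members lower in both Nar libraries numbered 1 of 2 tested at an average of 5 FPKM or more, 0 with haemoglobin removed, 0 after median-of-ratios scaling, and 3 to 7 with a library left out. The members' median reversed to 0.22 with haemoglobin removed and to 0.77 after median-of-ratios scaling, and ran from -0.58 to -0.06 with a library left out. Its distance from all genes ran from 0.37 to 1.13 with a library left out, and was 0.23 with no filter and 0.42 at a pseudocount of 1, against 0.73. The members' share outside haemoglobin, Nar over Ctrl, ran from 0.917 to 1.88 with a library left out, reversing at 0.917 without Ctrl 3, and was 0.843 with all genes in the total.

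Single genes reversed as follows. With haemoglobin removed, Cd79a was 0.22, Blk 0.088, Fcmr 0.31, Fcer2a 0.24 and Pax5 0.027. After median-of-ratios scaling, Cd79a was 0.82, Blk 0.66, Cd22 0.50, Fcmr 0.91, Fcer2a 0.77, Pax5 0.60 and Ebf1 0.49. With a library left out, Cd79b ran from -0.076 to 0.40, Ms4a1 from -0.13 to 1.24 and Fcer2a from -1.50 to 1.17. Without Ctrl 1, Fcmr was 0.10 and Fcer2a 1.17, without Ctrl 3 Cd79b was -0.076 and Ms4a1 -0.13, and without Nar 3 Cd79b was -0.0027 and Fcer2a 0.55. The scalings change the library totals by construction; the cause of the other changes was not tested.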

Other observations

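Cr2, which encodes complement receptor CD21 of mature B cells, was singled out after its values were seen and was too low to be tested. Ctrl 1 and 3 held 0.3 and 0.13 FPKM, and Nar 1 and 3 held 0.26 and 0.08 FPKM. The library numbered 1 was the higher in both groups, which was not particular to Cr2 or Fcer2a. Ctrl 1 exceeded Ctrl 3 for all 9 B cell genes and for 42.9% of all tested genes. Nar 1 exceeded Nar 3 for 6 of the 9 and for 69.1% of all tested genes.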
